A study of Mus musculus with 84 samples.

Results

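The DNA replication genes described here are 44 mouse genes whose products license origins, unwind and copy DNA, supply its nucleotides and assemble chromatin behind the fork. They were chosen by name, with earlier results of these data known, and all 44 were found among the 41388 mouse genes of the table. RNA was sequenced from 84 libraries of sorted mouse blood progenitors in 22 groups, 43 control and 41 MLL-ENL. MLL-ENL is the leukaemia fusion of KMT2A and MLLT1, expressed here from a tetracycline-regulated transgene. The series asks how the ability of MLL-ENL to start leukaemia changes with age, and its title places the peak in neonatal development.

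The sorted populations were 3: committed hematopoietic progenitor cells (HPC), pre-granulocyte-monocyte progenitors (pGM) and granulocyte-monocyte progenitors (GMP). At P0 all 3 came from neonatal liver and at 10 wk from bone marrow, in wild type controls and in MLL-ENL mice. These groups had no doxycycline (dox) and are labelled as fetal induction, controls included. Each held 4 libraries except the P0 pGM controls, with 3. A further set of 10 wk bone marrow libraries is labelled MLL-ENL (x2), with 3 libraries per population, and has its own 4 controls per population. The sources used here do not say what x2 means, what drives the transgene or which antigens were sorted. HPC of 6 mo and 12 mo mice were taken from bone marrow and are labelled 8 wk dox and adult induction. There were 4 control and 4 MLL-ENL libraries at each age, with the dox label in both genotypes. The sample titles do not say when dox was given. Age and tissue cannot be told apart between P0 and 10 wk. No label says that the libraries of a group came from separate animals, so p-values measure the spread between these libraries only.

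DNA replication is prepared before S phase, when the origin recognition complex, Cdc6 and Cdt1 load the MCM2-7 helicase onto origins, a step that geminin (Gmnn) blocks once S phase has begun. The kinase made of Cdc7 and Dbf4, with cyclin-dependent kinases, then lets Cdc45 and the GINS complex join the helicase, after which polymerase alpha with primase starts each strand and polymerases delta and epsilon extend it on the sliding clamp PCNA. Most of these genes are transcribed from late G1 under E2F transcription factors, so their summed RNA in a cell population is widely used as a readout of how many cells cycle.

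Member promoters were read for the letters that E2F factors bind, since those letters are shared by genes that otherwise have different roles. RefSeq promoter windows (GRCm38.p6, from 250 bases before to 50 after a gene's start) matched 36 of the 44 members. The letters searched, on both strands and with overlapping matches counted, were TTTCCCGC, TTTCGCGC, TTTGCCGC and TTTGGCGC. They stood in 12 of the 36 windows (33.3%) and in 2.32% of all 27025 promoter windows. The 12 were those of Orc1, Cdc6, Cdt1, Mcm3, Mcm5, Mcm6, Mcm7, Gins3, Pola1, Pole2, Pold1 and Rfc3. A match describes the letters only, and the absence of one says nothing of the factor. The promoters of 4 genes are shown because these genes fell in newborn HPC with MLL-ENL and cover several steps. Orc1 and Cdc6 load the helicase, Mcm5 is part of it, and Pola1 starts synthesis. Each line gives the 250 bases before the start, 5′ to 3′ on the gene's strand, with the searched letters, or their reverse complement, in capitals.
Orc1, chr4:108579204-108579453, plus strand: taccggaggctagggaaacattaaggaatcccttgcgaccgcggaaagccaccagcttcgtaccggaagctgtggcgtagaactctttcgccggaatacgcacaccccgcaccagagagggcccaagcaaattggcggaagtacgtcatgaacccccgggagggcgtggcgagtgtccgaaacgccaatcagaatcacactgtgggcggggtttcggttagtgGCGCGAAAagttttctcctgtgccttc
Cdc6, chr11:98907901-98908150, plus strand: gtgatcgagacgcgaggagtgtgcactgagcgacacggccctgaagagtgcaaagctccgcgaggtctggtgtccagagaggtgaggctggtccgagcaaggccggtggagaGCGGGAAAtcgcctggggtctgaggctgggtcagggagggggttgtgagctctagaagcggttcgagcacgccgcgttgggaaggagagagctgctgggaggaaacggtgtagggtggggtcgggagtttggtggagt
Mcm5, chr8:75109259-75109508, plus strand: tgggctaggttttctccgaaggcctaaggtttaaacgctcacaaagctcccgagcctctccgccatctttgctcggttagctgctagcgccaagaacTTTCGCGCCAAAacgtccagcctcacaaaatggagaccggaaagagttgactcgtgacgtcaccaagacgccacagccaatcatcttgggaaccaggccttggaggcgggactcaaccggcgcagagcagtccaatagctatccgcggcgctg
Pola1, chrX:93632156-93632405, minus strand: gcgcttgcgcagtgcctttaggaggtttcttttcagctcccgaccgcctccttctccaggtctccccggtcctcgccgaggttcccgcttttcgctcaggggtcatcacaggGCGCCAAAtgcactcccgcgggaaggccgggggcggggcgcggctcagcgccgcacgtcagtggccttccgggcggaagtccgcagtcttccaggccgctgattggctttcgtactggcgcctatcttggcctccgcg

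The match began 27 bases before the start in Orc1 and 138 bases before it in both Cdc6 and Pola1. In Mcm5 a pair of matches overlapped, beginning 153 and 149 bases before the start and reading in opposite directions. Of the 15 members with a window that fell in newborn HPC, 5 had a match, and of the 21 with a window that were not called there, 7 had one.

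Depth ran from 7.62 to 29.47 M counts per library (median 14.75 M), and the members took 0.697% to 1.33% of them, at least 62060 counts in every library. The transgene was above the highest control library (0.63 CPM, counts scaled by library size) in 40 of 41 MLL-ENL libraries. Its level differed between MLL-ENL groups. It was 12.94 to 21.13 CPM in P0 HPC, 8.75 to 11.73 CPM in P0 pGM and 7.78 to 14.34 CPM in HPC of the x2 set. In 10 wk HPC outside that set it was 2.37 to 6.3 CPM, and in 6 mo HPC 1.14 to 4.02 CPM. The part of transgene level in the differences between groups was not tested. All 9 progenitor identity genes averaged at least 1 CPM in P0 HPC of both genotypes. A pair of libraries stood apart from their labels. On a score of 50 HPC against 50 pGM marker genes, taken from the controls of the x2 set, the 10 wk MLL-ENL library labelled 73 HPC scored -1.46 where the other 3 of its group scored 2.17 to 2.59. The library labelled 73 pGM scored 2.34 where the others scored -1.91 to -1.58. Comparisons of 10 wk MLL-ENL cells with control, and of that effect with P0, are therefore given with and without the libraries labelled 73. Rankings of groups, ranges by gene and the other alternatives of processing keep them. With bulk RNA, fewer cells of a kind and less RNA per cell cannot be told apart.

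In newborn HPC the replication genes fell as a broad group with MLL-ENL. By edgeR's quasi-likelihood test with Benjamini-Hochberg adjustment over all genes (adjusted p below 0.05), 19 of the 44 members were lower and 0 were higher. Over all 14899 genes tested, 5.18% were lower and 2.42% higher. The median member changed by -0.52 on the log2 scale against -0.03 for all genes, and 40 of the 44 members lay below 0. In 24 members all 4 MLL-ENL libraries were below all 4 controls, and in 0 members all were above. Among the 6646 genes at least as abundant as the lowest member, 12.4% separated downward in this way.

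The count of called members moved with single libraries. It was 10 without control 2, 9 without control 4, 11 without MLL-ENL 2, 6 without MLL-ENL 4 and 4 without MLL-ENL 5, while the median stayed between -0.54 and -0.43 in all 8 such fits. With another scaling (RLE) it was 13, and the split over all genes became 3.91% lower (582 genes) against 2.83% higher (421) in place of 772 genes against 361.

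**Figure D1:**
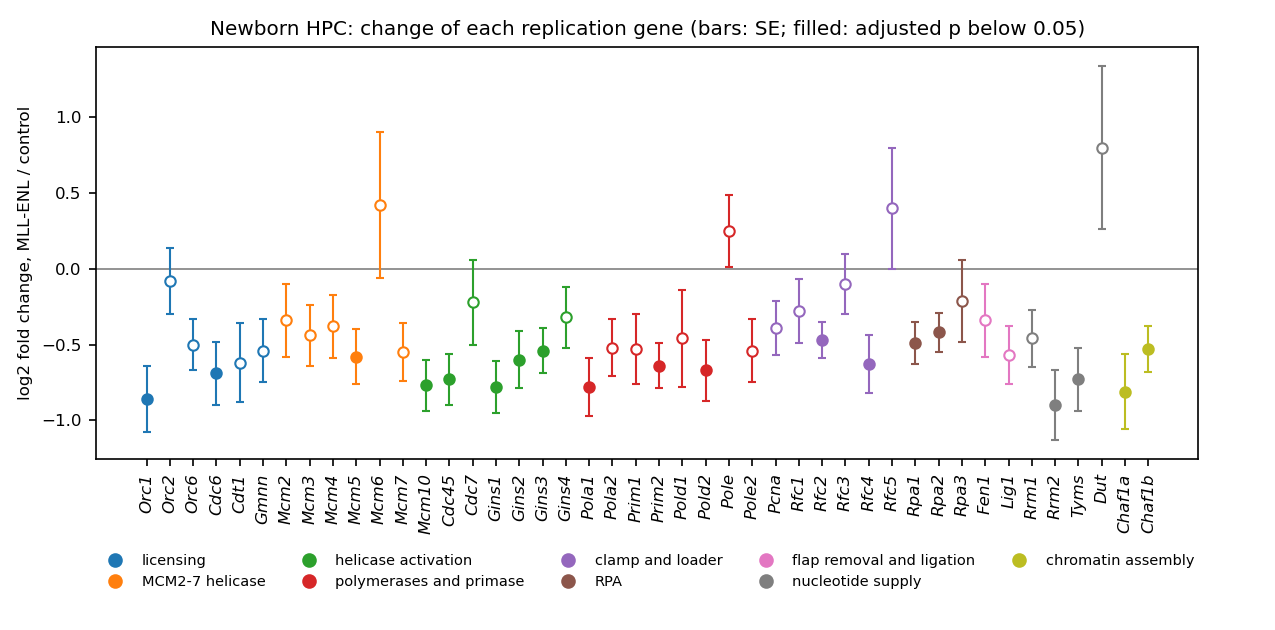
Log2 fold change of each of the 44 genes in P0 HPC, MLL-ENL over control (4 libraries each), ordered and coloured by role. Bars are standard errors and filled points have an adjusted p below 0.05 by edgeR. Dut, Mcm6, Rfc5 and Pole lie above 0 and the other 40 genes below it, with Rrm2 lowest at -0.90.

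Among the 6 licensing genes, 2 were called lower. Orc1, the largest subunit of the origin recognition complex, measured 25.4, 21.3, 23.3 and 17.9 CPM in the control libraries and 13.9, 13.2, 13.5 and 9.41 CPM with MLL-ENL. Its groups did not overlap (log2 fold change -0.86, SE 0.22, edgeR adjusted p = 0.0117). Cdc6, the ATPase that closes the loading complex, measured 147, 147, 115 and 153 CPM in controls and 78.1, 90.9, 95.1 and 94.3 CPM with MLL-ENL. Every MLL-ENL library was again below every control (-0.69, SE 0.21, edgeR adjusted p = 0.0344), though the adjusted p was 0.0519 with RLE scaling and 0.079 with no filter on low counts. Gmnn, the inhibitor of loading, was at 125 to 159 CPM in controls and 74.4 to 121 CPM with MLL-ENL, without overlap, and was not called (-0.54, edgeR adjusted p = 0.101). Its partner Cdt1 (-0.62) and Orc6 (-0.50) were not called either. Orc2 measured -0.08.

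Of the 6 subunits of the MCM2-7 helicase 1 was called. Mcm5 ran from 737 to 863 CPM in controls and from 448 to 621 CPM with MLL-ENL (-0.58, SE 0.18, edgeR adjusted p = 0.0357). Mcm2 measured 252, 239, 243 and 232 CPM in controls and 152, 191, 252 and 191 CPM with MLL-ENL. Its groups overlapped through MLL-ENL library 4, and it was not called (-0.34, SE 0.24). Mcm3, Mcm4 and Mcm7 measured -0.44, -0.38 and -0.55 without a call, while Mcm6 stood at 0.42 with an SE of 0.48.

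Helicase activation held the most calls, 5 of 7. Gins1, a subunit of the GINS ring, measured 70.4, 62.7, 84.9 and 65.4 CPM in controls and 38.5, 54.1, 36.2 and 41.6 CPM with MLL-ENL. It had the smallest adjusted p of the 44 members (-0.78, SE 0.17, edgeR adjusted p = 0.00244). Mcm10, which helps to start the assembled helicase, measured 86.0 to 101 CPM against 48.1 to 66.5 CPM (-0.77, SE 0.17, edgeR adjusted p = 0.00298). Cdc45, the helicase's essential cofactor, measured 110, 117, 121 and 122 CPM in controls and 60.4, 91.1, 61.1 and 79.9 CPM with MLL-ENL (-0.73, SE 0.17, edgeR adjusted p = 0.00534). None of these 3 genes overlapped between genotypes. Gins2 (-0.60) and Gins3 (-0.54) were also lower, while Gins4 (-0.32) and the kinase Cdc7 (-0.22) were not called.

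Of the 8 polymerase and primase genes 3 were lower. Pola1, the catalytic subunit of polymerase alpha, measured 61.6, 58.1, 52.6 and 79.5 CPM in controls and 39.1, 38.6, 38.2 and 34.9 CPM with MLL-ENL. The MLL-ENL libraries lay close together below all controls (-0.78, SE 0.19, edgeR adjusted p = 0.00911). The primase subunit gene Prim2 fell by 0.64 (SE 0.15, edgeR adjusted p = 0.00479) and Pold2, an accessory subunit of polymerase delta, by 0.67. Pole, the catalytic subunit of polymerase epsilon, measured 51.9 to 62.5 CPM in controls and 55.3 to 80.9 CPM with MLL-ENL, and was not called (0.25, SE 0.24).

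At the clamp, Pcna measured 128, 148, 178 and 134 CPM in controls and 117, 142, 100 and 103 CPM with MLL-ENL. The groups overlapped and Pcna was not called (-0.39, SE 0.18, edgeR adjusted p = 0.209). Annotated Pcna pseudogenes could have taken some of its reads, and the same holds for Tyms. Of the 5 subunits of the clamp loader, Rfc2 (-0.47) and Rfc4 (-0.63) were lower. Rpa2, of the complex that coats single-stranded DNA, measured 286, 324, 380 and 275 CPM in controls and 193, 290, 241 and 247 CPM with MLL-ENL. Only MLL-ENL library 3 reached into the control range (-0.42, SE 0.13, edgeR adjusted p = 0.0378), and the call was lost with RLE scaling, with no filter, with DESeq2 and with the 2 groups fitted alone (adjusted p 0.056 to 0.153). Rpa1 was lower as well (-0.49). Lig1, which seals Okazaki fragments, measured 231, 260, 262 and 237 CPM in controls and 141, 209, 165 and 173 CPM with MLL-ENL. Its groups were apart but its adjusted p was 0.0563 (-0.57, edgeR).

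Genes of nucleotide supply held both extremes of the list. Rrm2, the S phase subunit of ribonucleotide reductase, measured 355, 344, 324 and 384 CPM in controls and 190, 226, 167 and 192 CPM with MLL-ENL. It fell by 0.90 on the log2 scale (SE 0.23, edgeR adjusted p = 0.0122) with no overlap. Tyms, the thymidylate synthase, fell by 0.73 (edgeR adjusted p = 0.022). Dut, which removes dUTP, stood at 0.80 with an SE of 0.54 and was not called. Both chromatin assembly genes fell. Chaf1b measured 151, 158, 175 and 136 CPM in controls and 97.9, 125, 117 and 104 CPM with MLL-ENL (-0.53, SE 0.15, edgeR adjusted p = 0.0189, or 0.0809 with no filter), and Chaf1a, the large subunit, measured -0.81 (edgeR adjusted p = 0.0357).

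Exons of other genes overlap over 20% of the exon length of Orc2, Gins2, Fen1 and Chaf1a on the opposite strand, and the strand setting of the counting is not given, so reads of these 4 genes may include those of the neighbour.

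Other genes of the cell cycle moved beside the members in newborn HPC. Of 29 further replication genes 6 were lower and 0 higher, with a median of -0.40, among them Dbf4, the activator of Cdc7 (16.1 ± 1.58 CPM in controls, 9.74 ± 0.572 CPM with MLL-ENL, SD, n = 4 each), and the repair nuclease Exo1 (-0.66). Of 16 further genes for S phase supply and chromatin 4 were lower, among them the histone chaperone Asf1b (-0.97). Among 19 regulators of the step from G1 to S 4 were lower, namely Mybl2 (-1.21), Myc (-1.09), Ccne1 (-0.95) and Ccna2 (-0.95). E2f1 itself measured -0.36 (edgeR adjusted p = 0.28). Of 8 inhibitors of cyclin-dependent kinases and pocket proteins 1 was higher: Rbl2, which encodes the p130 repressor of quiescent cells, was at 15.1 ± 3.08 CPM in controls and 30.8 ± 1.66 CPM with MLL-ENL (SD, n = 4 each; 0.98, edgeR adjusted p = 0.0024). Of 21 mitosis genes 14 were lower and 0 higher, with a median of -0.67.

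Markers of other cells differed between the same 8 libraries. The summed level of 8 monocyte and dendritic markers ran from 9387 to 23505 CPM in controls and from 2070 to 3658 CPM with MLL-ENL, and 7 of the 8 were lower. That of 6 mast cell and basophil markers ran from 760 to 2418 CPM against 44.7 to 113 CPM, with 4 of 6 lower. Neutrophil granule markers summed to 2739 to 4516 CPM against 845 to 2010 CPM, with 1 of 8 lower. Stem cell markers moved the other way, from 890 to 1254 CPM up to 1833 to 2592 CPM, with 4 of 7 higher. Megakaryocyte markers summed to 64.6 to 111 CPM in controls and 127 to 194 CPM with MLL-ENL, and of the 4 tested Gp9 was higher and Pf4 lower. Erythroid markers (40.5 to 118 CPM against 14.4 to 47.8 CPM) and hepatocyte markers (18.4 to 26.2 CPM against 25.6 to 35.9 CPM) overlapped, with 0 called. None of the first 5 sums overlapped between genotypes, and of the 8 monocyte and dendritic markers only Xcr1 was near 0, with MLL-ENL (1.32 ± 1.49 CPM, SD, n = 4, against 19.2 ± 22.9 CPM). The score of HPC against pGM markers was 0.26 to 1.53 in these controls and 2.36 to 2.79 with MLL-ENL. In 10 wk HPC controls outside the x2 set that score was 1.83 to 2.85. Their monocyte and dendritic sum was 1082 to 1692 CPM, and their mast cell and basophil sum 32.2 to 89.0 CPM. Outside the P0 HPC controls no library of any group exceeded 3658 CPM in the monocyte and dendritic sum. The control side of this comparison thus stood apart as well. These same controls enter the comparisons of P0 HPC with pGM and with 10 wk. The part of these marker differences in the fall of the replication genes was not tested.

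The replication score, defined as the mean log2 CPM of the 44 members over all 84 libraries scaled together, orders the 22 groups and is given without a test. It was lowest in P0 HPC with MLL-ENL, at 6.46, 6.67, 6.47 and 6.43 by library (mean 6.51 ± 0.11, SD, n = 4). Their controls measured 6.89, 6.82, 6.97 and 6.91 (6.90 ± 0.06), without overlap. The highest group means were those of 10 wk GMP outside the x2 set, with 7.38 ± 0.07 in controls and 7.36 ± 0.14 with MLL-ENL (SD, n = 4 each). The next lowest group was HPC of the MLL-ENL (x2) mice at 6.69 ± 0.15 (SD, n = 3). In all 21 pairs of neighbours in this order the ranges of the libraries overlapped.

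**Figure D2:**
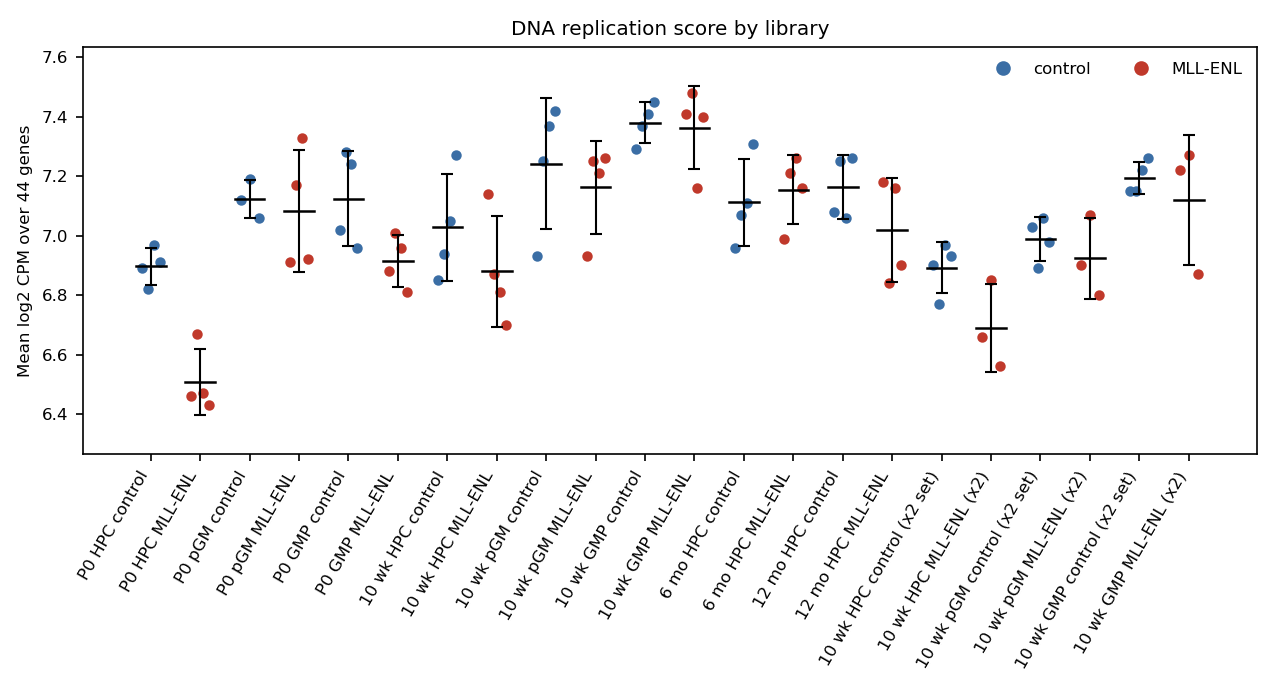
Mean log2 CPM over the 44 replication genes in each of 84 libraries (points), by group, with the group mean and SD (black). P0 HPC MLL-ENL libraries lie at 6.43 to 6.67, below the 6.82 of the lowest P0 HPC control, and the 10 wk GMP control and MLL-ENL groups outside the x2 set have the highest means (7.38 and 7.36).

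By gene, 28 members had their highest group mean in a GMP group and 40 had their lowest in an HPC group, 27 of these in P0 HPC with MLL-ENL. More groups are of HPC than of pGM or GMP, and such counts were not made over all genes. Controls of the same age and population also differed between sets. The score of 10 wk GMP controls was 7.38 ± 0.07, against 7.19 ± 0.05 in the x2 set (SD, n = 4 each). The median member spanned 1.06 log2 units between its lowest and highest group. Rpa2 spanned least, from 243 ± 39.6 CPM in P0 HPC MLL-ENL to 384 ± 50.7 CPM in 12 mo HPC controls (SD, n = 4 each, 0.67 log2 units). Pcna was nearly as even, at 0.72. Among members not subject to the swings described below, Rrm2 spanned most, from 194 ± 24.4 CPM in P0 HPC MLL-ENL to 756 ± 106 CPM in 10 wk GMP controls (SD, n = 4 each). Cdt1 (1.81) and Orc1 (1.72) followed.

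Scaled to the summed length of annotated exons, levels differed by over 100 times between members in one group. In 10 wk GMP controls Mcm5 (322 ± 32.0 CPM per kb) and Mcm3 (316 ± 61.0 CPM per kb) were highest, followed by Rrm2 (273 ± 38.3 CPM per kb, SD, n = 4 each). The helicase is a ring of 1 copy of each subunit, yet Mcm7, Mcm6, Mcm4 and Mcm2 measured 164, 157, 144 and 54.3 CPM per kb. Chaf1a (1.96 CPM per kb), Pola2 (4.35) and Pole (4.38) were lowest. Exon lengths here sum all annotated exons, used or not, so genes with long rarely used exons read low.

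In the other 10 comparisons of MLL-ENL with control, 0 of 44 members were called by edgeR, and 0 by DESeq2. No member was thus called in more than 1 genotype comparison, 19 were called in 1 and 25 in none. Here and below, shares of all genes are those called at an adjusted p below 0.05. The share of all genes at an unadjusted p below 0.05 was not worked out, so member counts at an unadjusted p have no like share beside them.

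In P0 pGM the median member measured -0.03 (0 at an unadjusted p below 0.05; all genes, 0.188% lower and 0.161% higher). Rrm2 ran from 318 to 1041 CPM with MLL-ENL and from 391 to 581 CPM in controls, so the groups overlapped widely. P0 GMP gave a median of -0.19, with 36 of 44 members below 0 and 6 at an unadjusted p below 0.05 (all genes, 0.0336% lower and 0.0805% higher). Mcm10 had the smallest p there. It measured 94.4, 121, 118 and 93.1 CPM in P0 GMP controls and 71.1, 74.9, 63.8 and 72.5 CPM with MLL-ENL, without overlap, and was not called (-0.59, SE 0.17, edgeR adjusted p = 0.298). With the number in the label as a block it was called (-0.58, edgeR adjusted p = 0.0444), the 1 member that was (all genes, 0.47% lower and 0.825% higher). Rfc1 (-0.55) and Pola1 (-0.46) came next by p.

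At 10 wk the medians were -0.13 in HPC, -0.07 in pGM and -0.03 in GMP, with 0 members at an unadjusted p below 0.05 in each. Over all genes 0.0537% were lower and 0.121% higher in HPC, 0.0403% and 0.0537% in pGM, and 0.00671% and 0.0134% in GMP. Without the libraries labelled 73 the medians were -0.23, -0.01 and -0.09, again with 0 called, and 5 members in HPC, 0 in pGM and 1 in GMP had an unadjusted p below 0.05. Over all genes 0.0538% were then lower and 0.148% higher in HPC, 0.0269% and 0.0202% in pGM, and 0.00672% and 0.0202% in GMP. The score of 10 wk HPC with MLL-ENL was then 6.80 ± 0.09 (SD, n = 3) in place of 6.88 ± 0.19, against 7.03 ± 0.18 in controls (n = 4).

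In the x2 set HPC had a median of -0.21, with 40 of 44 members below 0 and 7 at an unadjusted p below 0.05 (all genes, 0.428% lower and 0.568% higher). Rfc2 (-0.38, edgeR adjusted p = 0.198) and Lig1 (-0.35, edgeR adjusted p = 0.221) had the smallest p, each without overlap between 3 MLL-ENL and 4 control libraries. pGM and GMP of that set had medians of -0.07 and -0.05, with 1 and 0 members at an unadjusted p below 0.05 (all genes, 0.435% lower and 0.4% higher in pGM, 0.631% and 0.266% in GMP). MLL-ENL library 5900 had the lowest replication score of its group in every population. It measured 6.56 in HPC against 6.66 and 6.85, 6.80 in pGM against 6.90 and 7.07, and 6.87 in GMP against 7.22 and 7.27. The control means were 6.89, 6.99 and 7.19, so these small falls leaned on that library, most of all in GMP.

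After adult induction the median was 0.02 in 6 mo HPC and -0.18 in 12 mo HPC, with 0 and 7 members at an unadjusted p below 0.05. Over all genes 0.0% were lower and 0.00766% higher at either age. Chaf1b (-0.27) and Rrm2 (-0.37) had the smallest p at 12 mo (edgeR adjusted p = 0.732 for both). Rrm2 measured 457 to 654 CPM in 12 mo controls and 353 to 512 CPM with MLL-ENL, so the groups overlapped. The difference between both ages' effects was called for 0 members (median -0.19, 1 at an unadjusted p below 0.05, and 0.0% of all genes in either direction).

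**Figure D3:**
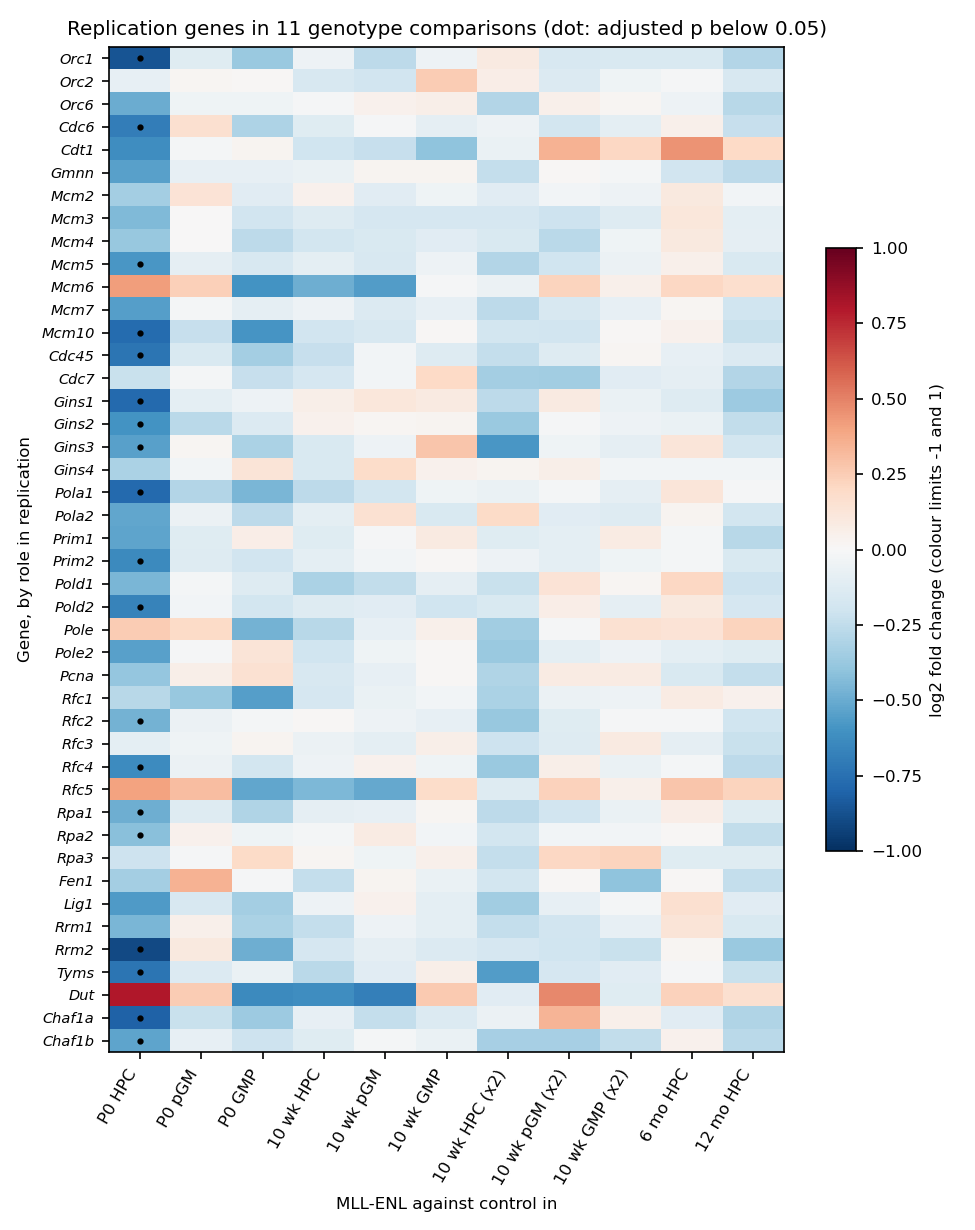
Log2 fold change of MLL-ENL over control for 44 replication genes (rows, by role) in 11 comparisons (columns), blue lower and red higher, with dots for an adjusted p below 0.05 by edgeR. All 19 dots are in the P0 HPC column. Mcm6, Rfc5 and Dut change sign between columns, as do many other members.

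Whether the effect in HPC differed between P0 and 10 wk was tested gene by gene as a contrast of the 4 groups. By edgeR 0 of 44 members were called, and 0 by DESeq2 (all genes, 1.24% lower and 0.356% higher). The median difference was -0.41, with 39 of 44 below 0 and 11 at an unadjusted p below 0.05. Gins1 came nearest (-0.83, SE 0.24, edgeR adjusted p = 0.0595), followed by Rfc2 (-0.48, edgeR adjusted p = 0.158). A single member passed when 10 wk MLL-ENL 81, 10 wk control 80, 10 wk control 88 or P0 MLL-ENL 3 was left out. Without the libraries labelled 73 the median was -0.34, with 11 again at an unadjusted p below 0.05 and 0 called (all genes, 0.766% lower and 0.215% higher). A fall particular to newborn HPC is therefore not shown for any single member. In pGM the same contrast had a median of 0.03 and 0 members at an unadjusted p below 0.05 (all genes, 0.0% lower and 0.00671% higher), and in GMP -0.14 and 2 (0.00671% and 0.0%). Without the libraries labelled 73 these medians were -0.03 in pGM and -0.16 in GMP.

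**Figure D4:**
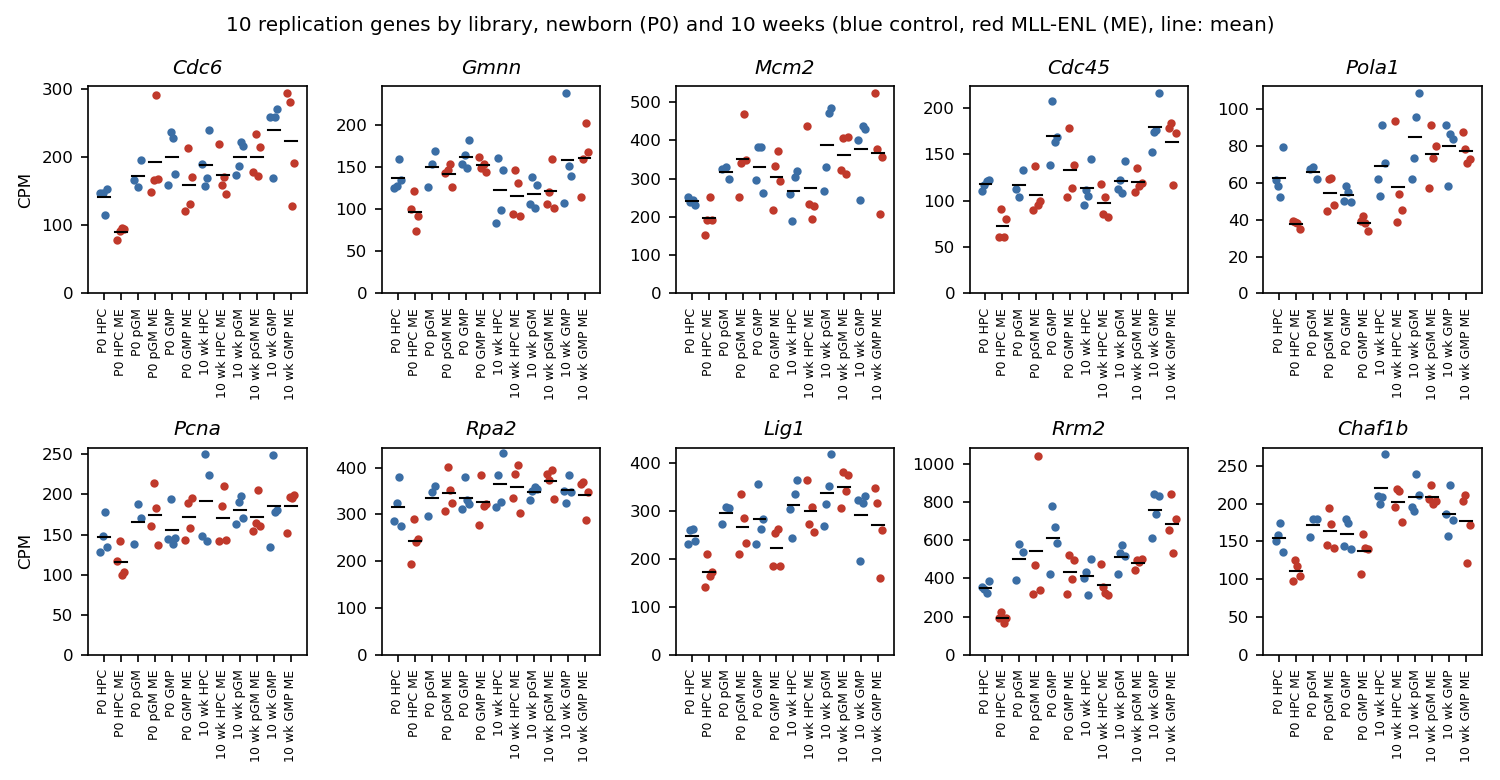
CPM of 10 replication genes, 1 or 2 per role, in each library at P0 and 10 wk (points; blue control, red MLL-ENL, marked ME; lines are group means; axes start at 0). In P0 HPC the MLL-ENL points of Cdc6, Cdc45, Pola1 and Rrm2 lie below all control points, and Cdc45 is higher in GMP than in pGM controls at both ages.

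Between populations of control cells few replication genes were called in the fits without pairing by identifier, 0 to 2 of 44 in each step. That share (0.0% to 4.5%) was below that of all genes called in the same direction. With pairing this did not hold in every step. From pGM to GMP in the x2 set 22 of 44 members were then higher and 2 lower (all genes, 23.1% and 24.3%). From HPC to pGM at P0, Orc1 measured 25.4, 21.3, 23.3 and 17.9 CPM in HPC and 37.3, 55.2 and 33.3 CPM in pGM. The groups were apart, and it was the 1 member called higher (0.93, SE 0.23, edgeR adjusted p = 0.0075; all genes, 3.19% higher and 4.52% lower), and not without P0 pGM control 3. With the label number as a block, although only 1 of 3 pairs correlated best with its own number, Orc1 (0.94) and Orc2 (0.65) were higher (all genes, 3.92% higher and 7.41% lower). The score rose from 6.90 ± 0.06 to 7.12 ± 0.07 with no overlap, and 38 of 44 members lay above 0.

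At 10 wk the step from HPC to pGM had a median of 0.14 and 0 calls by edgeR or DESeq2 (5 at an unadjusted p below 0.05; all genes, 2.71% higher and 3.5% lower). Samples that share an identifier deviated together here. With that identifier as a block, Dut (1.10), Mcm6 (0.96), Rfc5 (0.88), Orc1 (0.65) and Mcm2 (0.53) were higher (all genes, 5.05% higher and 7.96% lower). Of these, Dut, Mcm6 and Rfc5 swing between libraries together with genes of no role in replication, as described below. Without 10 wk pGM control 76, 1 member was called in the fit with no block. In the x2 set's controls the median was 0.12, with 0 calls and 1 at an unadjusted p below 0.05 (all genes, 5.85% higher and 6.37% lower). Blocked, Chaf1a (0.54), Gmnn (0.30), Mcm2 (0.29) and Orc6 (0.26) were higher and Pole (-0.33) lower (all genes, 12.8% higher and 14.0% lower).

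From pGM to GMP, Cdc45 was higher in all 3 sets of controls. At P0 it measured 113, 104 and 133 CPM in pGM and 139, 208, 163 and 169 CPM in GMP (0.54, SE 0.19, edgeR adjusted p = 0.0454). At 10 wk it measured 113, 122, 108 and 143 CPM against 152, 174, 176 and 216 CPM (0.54, SE 0.17, edgeR adjusted p = 0.0257). In the x2 set's controls it measured 99.6, 93.2, 105 and 93.1 CPM against 131, 117, 181 and 191 CPM (0.64, SE 0.18, edgeR adjusted p = 0.0126). No GMP library fell within the pGM range in any set. Over all genes the step raised 6.43%, 5.76% and 8.25% and lowered 7.5%, 9.97% and 14.3% in the 3 sets.

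Cdc45 was the 1 member called at P0 and at 10 wk. At P0 the call was lost without GMP control 3, 4 or 5 or pGM control 2 or 3, and at 10 wk without GMP control 87 or 88 or pGM control 76, 80 or 87, each leaving 0 calls. It was lost as well with no filter on low counts (edgeR adjusted p = 0.103 at P0 and 0.0602 at 10 wk) and, at P0, with the groups fitted alone (0.0516). In the x2 set Rrm2, at 292 to 424 CPM in pGM and 534 to 689 CPM in GMP, was called as well (0.78, SE 0.23, edgeR adjusted p = 0.0159). Only 1 of the 2 calls was left there without GMP control 5898 or 5899 or pGM control 4894.

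Paired by identifier, the same step gave more calls. At 10 wk Dut (1.0), Cdc45 (0.57), Rrm2 (0.57) and Orc1 (0.55) were higher (all genes, 10.1% higher and 12.9% lower), Dut being subject to the swings described below. In the x2 set 24 of 44 members were called, 22 higher and 2 lower (all genes, 23.1% higher and 24.3% lower). Rrm2 led (0.77, SE 0.06, edgeR adjusted p = 1.2e-06), and the licensing genes Orc1 (0.44), Cdc6 (0.32), Gmnn (0.24) and Cdt1 (0.46) were among those higher. Rfc2 (-0.28) and Pole (-0.30) were the 2 that were lower. At P0 Cdc45 was again the 1 member called (0.53, edgeR adjusted p = 0.0404; all genes, 9.62% higher and 10.0% lower).

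Between P0 liver and 10 wk marrow, 1 or 2 of the 44 members were called in each control population, again a smaller share (2.3% to 4.5%) than that of all genes called in the same direction except in GMP. In HPC 2 members were lower at P0, Chaf1b (155 ± 16.2 against 221 ± 30.5 CPM) and Rfc2 (468 ± 80.6 against 654 ± 31.4 CPM, SD, n = 4 each), while 9.0% of all genes were higher and 7.28% lower. That count was 4 without 10 wk control 80 and 1 without 10 wk control 88 or P0 control 5. In pGM Gins3 was lower at P0 (-0.53, edgeR adjusted p = 0.0325; all genes, 5.17% higher and 3.99% lower), a call lost without P0 control 5, while without 10 wk control 76 there were 2. In GMP Fen1 (-0.75) and Rfc5 (-1.20) were lower (all genes, 7.95% higher and 4.29% lower), with 1 call left without 10 wk control 76 or 87 or P0 control 2, and 0 without 10 wk control 88 or P0 control 3 or 5. Reads of Fen1 may include those of a neighbour, as given above. Rfc5 swings between libraries as described below, and its groups overlapped (27.4 to 88.8 CPM at P0, 85.3 to 128 CPM at 10 wk). The GMP score was 7.12 ± 0.16 at P0 and 7.38 ± 0.07 at 10 wk (SD, n = 4 each), with no overlap. From 6 to 12 mo 0 members were called by edgeR in control HPC (median 0.06, 4 at an unadjusted p below 0.05, and all genes 0.421% higher and 0.138% lower), and 2 were higher by DESeq2.

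Mcm6, Rfc5 and Dut behaved unlike the other members. Between libraries of the same group their levels ran apart by a median of 2.29, 2.48 and 3.54 times (highest over lowest library), against 1.18 to 1.68 times for the other 41. In P0 HPC controls Dut measured 35.8, 27.8, 35.7 and 100 CPM, Rfc5 25.3, 24.2, 28.7 and 60.1 CPM and Mcm6 170, 208, 168 and 509 CPM. Control 5 was high in all 3 genes. The same library carried the highest level of all 3 in 11 of the 22 groups, and the lowest of all 3 in 15.

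In the x2 set the same identifiers recurred. The libraries labelled 5898 were the lowest controls for all 3 genes in HPC, pGM and GMP, with Dut at 37.4 CPM in HPC where the other controls had 163 to 179 CPM. Those labelled 5900 were the lowest MLL-ENL libraries, with Dut at 32.4 CPM in HPC against 153 and 196 CPM. Genes with no role in replication, picked after their values were seen, took part. Pfn1, the actin-binding profilin, measured 151 CPM in HPC of 5898 against 1061 to 1182 CPM in the other controls, and 651 CPM in P0 HPC control 5 against 144 to 155 CPM. The library highest in Rfc5 was also highest in Pfn1 in 17 of 22 groups, in Mcm2 in 9 and in Pcna in 3. What these libraries share was not tested. Leaving out the 3 genes changed the score difference in P0 HPC from -0.39 to -0.47, that between P0 and 10 wk GMP controls from -0.26 to -0.18, that between P0 and 10 wk pGM controls from -0.12 to -0.08 and that in 10 wk pGM with MLL-ENL from -0.08 to -0.05. This alternative was added after seeing the data.

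**Figure D5:**
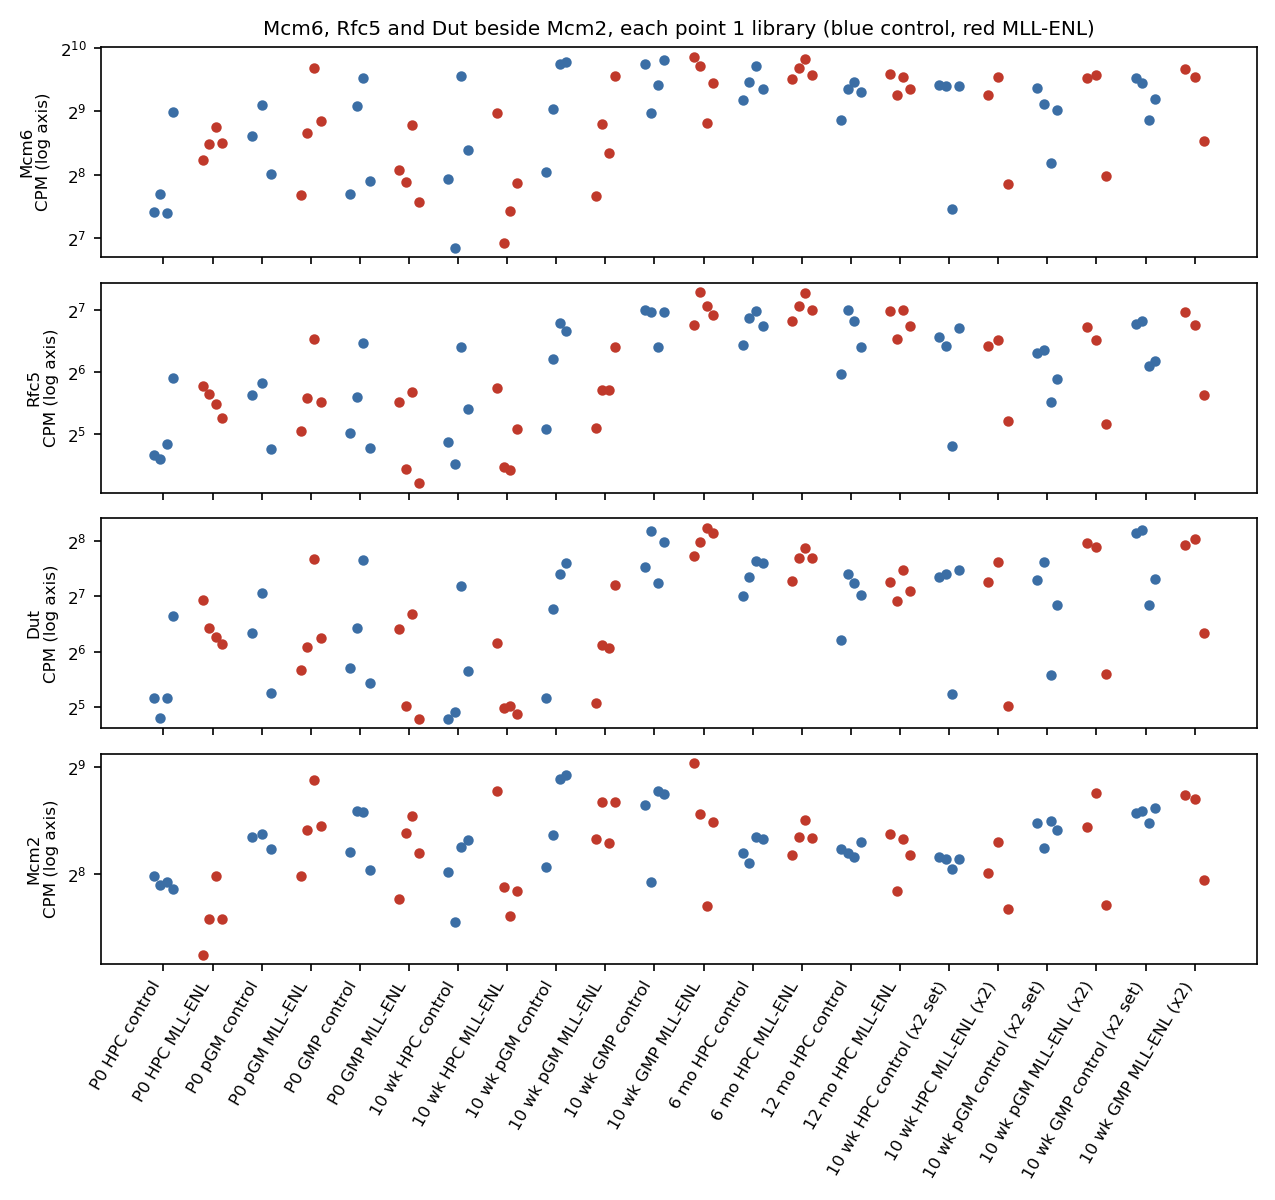
CPM (log axes) of Mcm6, Rfc5, Dut and, for comparison, Mcm2 in each of 84 libraries by group (blue control, red MLL-ENL). Single libraries stand far above or below their group in the same places in the upper 3 panels, such as the high P0 HPC control 5 and the low 5898 and 5900 libraries of the x2 set, while Mcm2 varies less.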

How the data were processed

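Per the labels, RNA was extracted with a Qiagen micro plus kit and libraries were made with a Clontech kit. The authors deposited raw counts of reads per Ensembl gene, made with STAR 3.0.4, Subread and featureCounts 1.4.5 per the submitters' processing notes. The sources used here do not give the genome build, the annotation or the strand setting.

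Symbols and exon lengths came from GENCODE vM21 (40254 of 41388 identifiers matched), and the 3 human or fusion lines stayed out of library sizes. The 47 libraries at P0 and 10 wk, the 21 of the x2 set and the 16 at 6 and 12 mo were fitted separately with edgeR 4.0.16 (R 4.3.3; TMM scaling, filterByExpr, 1 mean per group, quasi-likelihood F test, Benjamini-Hochberg over 14899, 14260 and 13059 genes). All 44 members passed each filter. Levels are TMM-scaled CPM over all 84 libraries, and log2 CPM has a prior count of 2. Alternatives were RLE scaling, no filter, DESeq2 1.42.0, compared groups alone, a replicate block and each library left out. The script was tested on simulated data. Members, lists and alternatives were chosen with earlier results of these data known. In each comparison up to 4 called members with the smallest p per direction were to be named, or the 2 with the smallest p, besides 1 lead member per role.

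Label numbers were taken as pairs where every same-numbered pair of libraries deviated together (correlation over 0.1). This held in all 6 population steps (0.11 to 0.69; for P0 pGM against HPC only 1 of 3 pairs correlated best with its own number) and in P0 pGM (0.21 to 0.54) and P0 GMP (0.32 to 0.65) for genotype, but not in P0 HPC. No 2 libraries of a group were duplicates (120 pairs checked).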

Additional observations from a re-analysis of the deposited data

Results flagged for a closer look

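In groups of 4, a library was picked out where its gap to the nearest other was a larger part of the group's range than Dixon's 95% limit, which chance does in about 1 of 20 groups; 13 of 198 were. The replication score of P0 HPC MLL-ENL 3 was 6.67 against 6.43 to 6.47 in the other 3. That of 10 wk pGM MLL-ENL 73, whose markers stood apart from its label, was 6.93 against 7.21 to 7.26. In 10 wk GMP control 80, Cdc6 (169 CPM against 258 to 270), Mcm2 (243 against 400 to 439) and Lig1 (196 against 316 to 330) were all low. Single low values were Cdc6 in P0 HPC control 4 (115 CPM), Mcm2 in HPC control 5898 of the x2 set (265 CPM), Cdc45 in 10 wk GMP MLL-ENL 78 (117 CPM), Pcna in 10 wk GMP MLL-ENL 73 (152 CPM) and 6 mo HPC MLL-ENL 1704 (131 CPM), and Lig1 in 12 mo HPC control 9806 (312 CPM). Pola1 was high in 6 mo HPC MLL-ENL 1485 (117 CPM against 81.1 to 84.2) and in pGM control 4892 of the x2 set (89.6 CPM against 66.0 to 68.2).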

How the results depend on the processing

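For P0 HPC the 19 members called became 8 with no filter on low counts (all 8 among the 19), 13 with RLE scaling, 16 with DESeq2 and 17 with both groups alone, and 4 to 15 with 1 library left out. Its replicate block gave 27 (26 lower and Dut higher), though its numbers do not pair, since same-numbered libraries correlated at as little as -0.07 and 2 of 4 pairs matched best. Shares of all genes are given above for the 19, for RLE scaling and for the block fits of other comparisons. The other counts in this section have no such share beside them, so they cannot be set against all genes.

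Fitting the compared groups alone gave 1 call for HPC controls by age, 0 for pGM by age, 3 for P0 pGM against HPC, 0 for P0 GMP against pGM, 2 at 10 wk and 6 in the x2 set. With no filter the counts were 0 for pGM by age and for GMP against pGM at P0 and 10 wk. DESeq2 gave 2 for 12 against 6 mo. The replicate block gave 1 for P0 GMP MLL-ENL, 2 for P0 pGM against HPC, 5 and 5 for that step at 10 wk and in the x2 set, and 4 and 24 for GMP against pGM; it changed no other call count by over 1.5 times.

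With 1 library left out, counts ran from 1 to 4, 0 to 2 and 0 to 3 for age in HPC, pGM and GMP, from 0 to 1 for P0 pGM against HPC, P0 GMP against pGM and 10 wk pGM against HPC, from 0 to 2 for 10 wk GMP against pGM, from 1 to 2 for that step in the x2 set, and from 0 to 1 for the HPC effect at P0 minus 10 wk. All other genotype counts stayed at 0, and no called value changed sign. The cause was not tested.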
